A study of Mus musculus with 15 samples.

Results

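Mouse embryonic fibroblasts that had already met interferon beta once were given it again, and the genes that moved within 2 h of this renewed exposure are described here. The cells were wild type (WT) c57bl/6 fibroblasts. They had been exposed to mouse recombinant interferon beta for 3 h, washed and cultured for 24 h without it, which is called pretreated below. The WT pretreated 0 h group is these cells before restimulation, and the WT pretreated 2 h group is these cells 2 h after the cytokine was added back at 100 units per ml. Each group has 2 libraries, chosen by their labels, so that 4 of the series' 15 libraries enter the main comparison. For comparison, 2 further pairs of groups were used. WT naive cells had no earlier exposure and were sampled at 0 h and after 2 h of interferon beta at 100 units per ml. Fibroblasts labelled NSD2 KO, for the histone H3 lysine 36 methyltransferase NSD2, were pretreated, restimulated at the same dose and sampled at 0 h and 2 h in the same way. The labels do not say how the KO was made. No group that went through the 2 h step without interferon is among the 15 libraries.

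Interferon beta is a secreted antiviral signal that nearly every cell can receive. Its receptor, made of IFNAR1 and IFNAR2, activates the kinases JAK1 and TYK2, which phosphorylate STAT proteins. STAT2 acts with IRF9 in ISGF3, a transcription factor that binds the interferon-stimulated response element (ISRE), and STAT dimers bind a separate palindromic site. The genes switched on encode antiviral proteins, sensors of foreign nucleic acid, antigen presentation machinery, and also the pathway's own components and brakes, among them USP18 and SOCS1. In fibroblasts, which share in the first line of defence of connective tissue, earlier interferon is known to alter how some of these genes answer a later dose.

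Promoter stretches of genes on which the results turn are shown first, because the same short element recurs in them. They were taken from RefSeq promoter windows of the GRCm38.p6 build, which reach from 250 bases before a gene's start to 50 bases after it, and are written 5′ to 3′ along the gene. Capitals mark matches to the ISRE core, which was searched as GAAA, any pair of bases and GAAA again on either strand, so that it can also read as TTTC, a pair of bases and TTTC. All stretches lie before the start. The genes shown were picked because they hold a match, so they do not stand for their lists. Ifit1 and Isg15 are antiviral effectors, Irgm1, Igtp and Gbp2 are GTPases, Cxcl10 is a chemokine gene, Stat2 a signalling part and Socs1 a brake. Cxcl10, Stat2 and Socs1 are each the only gene with an ISRE match among the tested members of their list that have a promoter window here. Those were 12 of 20 chemokines and cytokines, 13 of 14 receptor and JAK-STAT genes and 8 of 13 feedback inhibitors.
Ifit1 (chr19:34640775-34640823, plus strand): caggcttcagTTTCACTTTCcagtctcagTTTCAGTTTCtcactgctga
Isg15 (chr4:156200865-156200906, minus strand): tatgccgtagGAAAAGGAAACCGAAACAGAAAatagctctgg
Rsad2 (chr12:26456553-26456582, minus strand): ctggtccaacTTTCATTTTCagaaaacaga
Irgm1 (chr11:48871425-48871460, minus strand): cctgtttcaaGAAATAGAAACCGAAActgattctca
Igtp (chr11:58199512-58199541, plus strand): tctaggaactGAAACTGAAAgctgttcggg
Gbp2 (chr3:142620594-142620623, plus strand): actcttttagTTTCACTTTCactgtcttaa
Cxcl10 (chr5:92349083-92349112, minus strand): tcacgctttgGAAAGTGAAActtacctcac
Stat2 (chr10:128270266-128270295, plus strand): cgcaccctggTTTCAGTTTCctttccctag
Socs1 (chr16:10785594-10785629, minus strand): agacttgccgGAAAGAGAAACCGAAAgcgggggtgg
The next pair carry a CArG box, the site of the serum response factor SRF, marked in capitals. They are a kinase brake and a cytoskeletal gene that rose without an ISRE match in this window.
Dusp5 (chr19:53529053-53529092, plus strand): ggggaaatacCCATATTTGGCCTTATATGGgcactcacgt
Vcl (chr14:20929161-20929190, plus strand): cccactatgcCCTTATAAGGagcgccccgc

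ISRE matches were common among genes that rose at least 2-fold at restimulation. Of the 273 such genes, 203 matched the table and had 278 promoters, of which 64 (23%) held the ISRE core. The share was 3.01% of the 13807 promoters of all tested genes and 3.44% of all 32851 promoters. Of the 94 promoters of genes that fell at least 2-fold, 0 held it. In the gene lists used below, 8 of 11 GTPase promoters (72.7%) and 31 of 79 antiviral effector promoters (39.2%) held an ISRE core. Chemokines and cytokines had 1 of 14 (7.14%), receptor and JAK-STAT genes 1 of 16 (6.25%) and feedback inhibitors 1 of 9 (11.1%). The STAT site TTCNNNGAA, which reads the same on both strands, was in 14.4% of the promoters of genes that rose at least 2-fold and in 6.89% of those of all tested genes. CArG boxes, searched on both strands, were in 6 of 32 promoters of immediate early factors (18.8%), which belong to 3 of 25 matched genes (12%). They were in 4 of 20 promoters of SRF and YAP targets (20%, 4 of 19 genes), against 1.39% of those of tested genes. Genes that rose at least 2-fold held a CArG box in 7 of 278 promoters (2.52%), and genes that fell at least 2-fold in 3 of 94 (3.19%). Among MAP kinase feedback genes, 1 of 19 promoters (5.26%), that of Dusp5, held a CArG box. ISRE and STAT matches overlapped in 24 of the 32851 promoters, and neither overlapped a CArG box. A match is a run of letters and was not tested for binding.

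**Figure D1:**
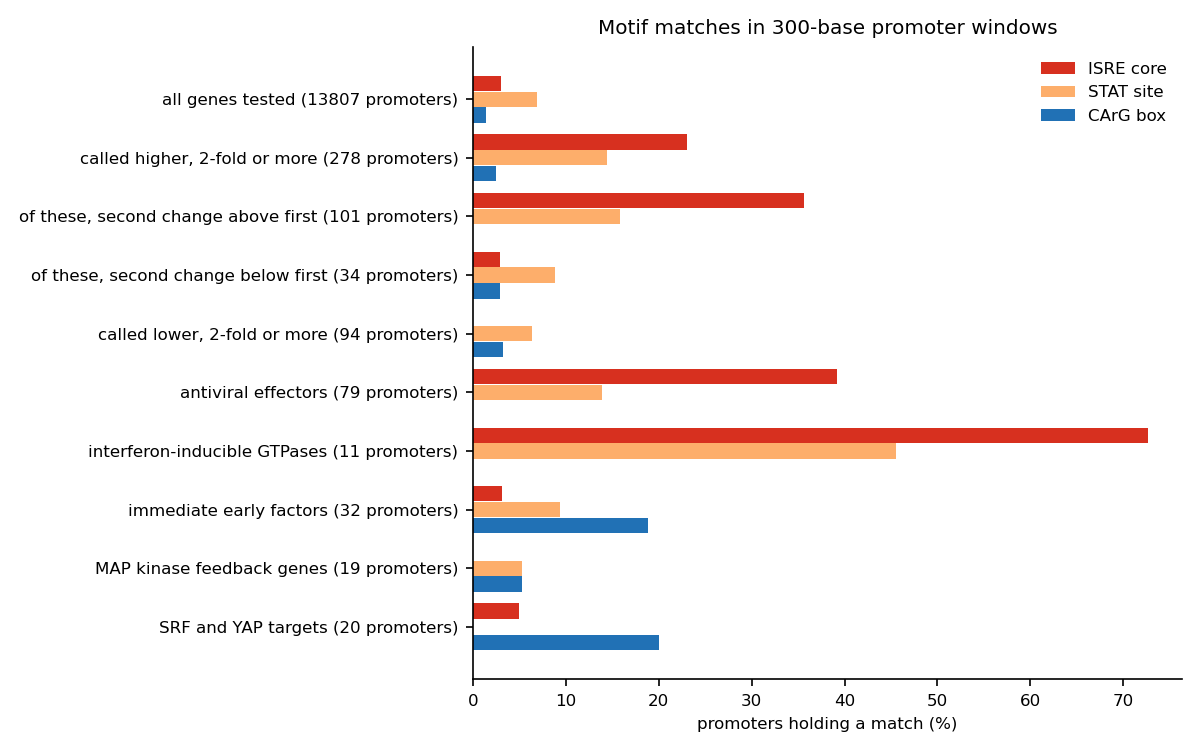
Share of 300-base promoter windows (x axis, percent) that held an ISRE core (red), a STAT site (orange) or a CArG box (blue), by gene set, with the number of promoters in brackets. ISRE matches reach 72.7% in the GTPase list and 23% in genes called higher by 2-fold or more, against 3.01% in all tested genes. Among the sets drawn, CArG boxes are most frequent in the SRF and YAP target and immediate early lists, in the latter from 3 genes.

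The 4 libraries held 26515315 to 27768215 counts in genes. Between 18.5% and 29.4% of them fell on Rn45s, a ribosomal transcript, and Lars2, lowest in WT pretreated 2 h replicate 1. Whsc1, the older symbol under which the files list NSD2, stood at 146 and 133 CPM at 0 h and at 145 and 141 CPM at 2 h, with a log2 change of 0.04 ± 0.046 (SE; edgeR adjusted p = 0.63). CPM here is counts scaled to library size. Its reads form a single value for the gene, which cannot show whether part of the gene was removed, so KO stands for a label. Fibroblast markers summed to between 13390 and 14300 CPM in each of the 4 libraries, most of it from Vim, Col1a2, Fn1 and Col1a1. Of these 15 markers Fap was at 0 in the 4 libraries, Thy1 was at most 0.141 CPM and Lum at most 0.0728 CPM. Of the 14 tested, 3 (Vim, Twist1 and Twist2) were called higher at 2 h and 4 lower. Among the lower was Col1a1, at 1019 and 977 CPM at 0 h and 670 and 847 CPM at 2 h. Of 21 macrophage and blood markers listed in the files 12 were at 0, among them the defining Emr1, C1qa and Cd3e, and the rest summed to 15.8 and 16.8 CPM at 0 h and 20.6 and 19.9 CPM at 2 h. Epithelial markers summed to 22.7 and 21.6 CPM at 0 h and 29.9 and 27.4 CPM at 2 h, with Epcam at 0. Endothelial, skeletal muscle and neural sums lay between 1.10 and 33.1 CPM, with Emcn, Myod1 and Sox2 at 0. Single members carried much of these sums: Cd14 at 11.65 to 16.6 CPM, Krt19 at 19.7 to 26.6, Tubb3 at 15.5 to 19.2 and Map2 at 7.79 to 9.61. At 2 h, 1 macrophage and blood marker, 2 epithelial and 1 skeletal muscle marker were called higher, and 1 neural marker lower. In bulk RNA, fewer responding cells and less RNA per cell cannot be told apart.

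Restimulation moved a broad set of genes. Among genes with a mean of at least 1 CPM in the 4 libraries, Ifit1, I830012O16Rik, Ifit3 and Cxcl10 had the largest rises and the pro-apoptotic gene Bmf the largest fall. EdgeR's quasi-likelihood test called 3138 of 13802 tested genes (22.7%) at an adjusted p below 0.05. Of these, 1682 were higher (12.2% of tested genes) and 1456 lower (10.5%). At least 2-fold changes were rarer and mostly upward, with 273 genes higher (1.98%) and 112 lower (0.811%), or 68 lower with DESeq2. The median log2 change of all tested genes was -0.01. The split of calls depends on scaling: 53.6% of calls were higher here, 64.0% with DESeq2 and 63.9% when Rn45s and Lars2 were left out. The genes called lower numbered 855 with DESeq2, 743 without WT pretreated 0 h replicate 1 and 912 without WT pretreated 2 h replicate 1. The libraries of the groups did not overlap, with 2 h above 0 h, for 27.1% of tested genes, and with 2 h below for 29.9%. The counts by list below stand against the 12.2% of tested genes called higher and the 10.5% called lower.

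**Figure D2:**
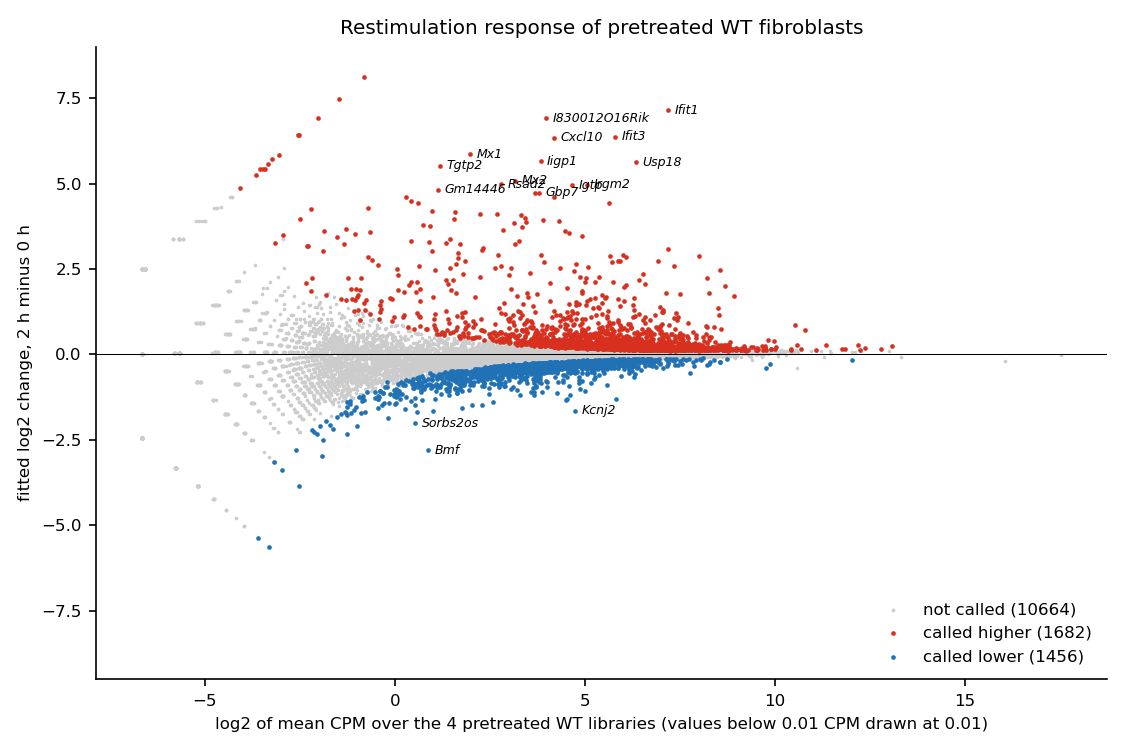
Fitted log2 change of each tested gene at restimulation (y axis) against the log2 of its mean CPM over the 4 pretreated WT libraries (x axis). Red points are the 1682 genes called higher, blue the 1456 called lower and grey those not called, and the straight rows of points at the far left are genes with few or no counts in a group, whose fitted values depend on the prior count. Named are the 14 largest rises and 3 of the largest falls among genes with a mean of at least 1 CPM.

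Of the parts that carry the signal, Stat2 and Irf9 rose, and the receptor and its kinases were not called or moved little. The list of receptor and JAK-STAT genes had 5 of 14 tested members higher, against 12.2% of all tested genes, and 1 lower, with a median log2 change of 0.03. Stat2 went from 16 and 14 CPM to 120 and 106 CPM, a log2 change of 2.91 ± 0.069 (SE; edgeR adjusted p = 2.6e-24). Irf9 went from 13.4 and 15.7 CPM to 60.4 and 65.8 CPM, or 2.12 ± 0.074. In both genes each restimulated library lay above each 0 h library. Jak2, a kinase used by other cytokine receptors, rose by only 0.25 ± 0.056, and Stat3 by 0.26 ± 0.062. Stat5a, at -0.37, was not called lower with DESeq2, in the fit on the compared groups, or without WT pretreated 0 h replicate 1 or either WT pretreated 2 h replicate. Both receptor chains gave small values that were not called, at -0.12 for Ifnar1 and -0.04 for Ifnar2.

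Brakes on the pathway rose unevenly. Of 13 tested feedback inhibitors 5 rose and 1 fell, with a median log2 change of 0.17. The number called higher was 8 without Rn45s and Lars2, 3 in the fit on the compared groups, 3 without WT pretreated 2 h replicate 1 or WT pretreated 0 h replicate 2, and 2 without WT pretreated 2 h replicate 2, where 2 were lower. Usp18 encodes a protease that removes ISG15 from proteins and also holds back signalling at IFNAR2. It was at 3.06 and 3.36 CPM at 0 h and at 152 and 166 CPM at 2 h, a rise of 5.63 ± 0.093 on the log2 scale (49.4-fold, edgeR adjusted p = 2.1e-27). Socs1, which blocks JAK kinases, went from 5.90 and 6.88 CPM to 23.8 and 30.9 CPM, or 2.09 ± 0.11. Socs3, an inhibitor best known for cytokines that use STAT3, gave 0.31 ± 0.096 (adjusted p = 0.019), a call that was lost without WT pretreated 0 h replicate 2 (adjusted p = 0.15) or WT pretreated 2 h replicate 2 (0.22). Pias3 fell by 0.45 on the log2 scale. The rise of Pias2 (0.20 ± 0.062) was not called without WT pretreated 2 h replicate 1 (adjusted p = 0.066), WT pretreated 0 h replicate 2 (0.17) or WT pretreated 2 h replicate 2 (0.072).

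Interferon regulatory factors, the transcription factors that extend the response, had 6 of 8 tested members higher and 0 lower, with a median log2 change of 1.38. Irf7, which drives interferon alpha genes in infected cells, was at 1.42 and 1.48 CPM at 0 h and at 35.6 and 34.8 CPM at 2 h, a 24.2-fold rise (log2 4.6 ± 0.11, edgeR adjusted p = 2.2e-24). Irf1 went from 26 and 26.9 CPM to 106 and 104 CPM, or 1.99 ± 0.057. Irf5 went from 13.5 CPM in both 0 h libraries to 48.1 and 46.1 CPM, or 1.81 ± 0.069. Irf2, which opposes Irf1 at shared sites, rose by 0.95 ± 0.13. Batf2, a basic leucine zipper factor, had 0 counts at 0 h and 26 over both 2 h libraries, at least 9.07-fold higher against a floor of 3 counts over the group. Irf3, which is regulated at the protein level, gave -0.01 and was not called. The genes for interferons themselves stayed near the limit of detection: 0 of 15 passed the count filter. Of these, 8, Ifnb1 among them, had no count in the 4 libraries, which allows a level of up to 0.0281 CPM over the 4 (counting error only), and none exceeded 0.169 CPM in a library.

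Antiviral effectors formed the broadest rise. Of 70 tested members 65 rose and 0 fell, with a median log2 change of 2.26, against 12.2% of all tested genes called higher. Ifit1, which binds viral RNA that lacks a host cap, was at 2.11 and 2.00 CPM at 0 h and at 252 and 335 CPM at 2 h. Its log2 change was 7.15 ± 0.14, or 142-fold (edgeR adjusted p = 6.2e-26), the largest among genes with a mean of at least 1 CPM in the 4 libraries. Ifit3 went from 1.20 and 1.44 CPM to 92.6 and 127 CPM, or 6.37 ± 0.17. Its relative I830012O16Rik went from 0.255 and 0.259 CPM to 27.2 and 36.1 CPM, or 6.91 ± 0.26. Ifit2 started far higher, at 29.2 and 28.1 CPM, and reached 80.1 and 98.3 CPM, so that its log2 change was only 1.63 ± 0.070. The family thus spans a low, steeply rising Ifit1 and an Ifit2 that was already present and rose 3.10-fold. Ifit3 and I830012O16Rik are near-identical copies whose shared reads the counting could leave out or split, so their values are uncertain.

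The ubiquitin-like modifier gene Isg15 went from 0.728 and 1.15 CPM to 24 and 26 CPM, a log2 change of 4.73 ± 0.15 (26.5-fold, edgeR's adjusted p = 2.0e-21). Mx1 and Mx2, dynamin-like GTPases that trap viral components, reached 5.57 and 10.1 CPM and 17.0 and 18.0 CPM. Their 0 h levels were 0.218 and 0.037 CPM for Mx1 and 0.328 and 0.702 CPM for Mx2, and the log2 changes were 5.85 ± 0.38 and 5.08 ± 0.17. In these 3 genes the groups were far apart, although the replicates of Mx1 differed widely at both times. Rsad2, which encodes viperin, a radical enzyme that makes a chain-terminating nucleotide, went from 0.473 and 0.370 CPM to 11.9 and 15.3 CPM (4.99 ± 0.19). Cmpk2, a nucleotide kinase gene, went from 0.255 and 0.185 CPM to 3.14 and 3.08 CPM (3.80 ± 0.27). Oasl2, of the oligoadenylate synthetase family, went from 0.400 and 0.628 CPM to 8.14 and 9.90 CPM (4.11 ± 0.22), and Oasl1 had 0 counts at 0 h and 38 at 2 h, at least 13.2-fold higher. Oas1a and Oas1g also rose, with near-identical copies as a reservation.

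Several effectors were abundant before restimulation and rose by smaller folds. Samd9l, a restriction factor, went from 99.8 and 109 CPM to 484 and 510 CPM, a log2 change of 2.25 ± 0.052 (edgeR adjusted p = 1.6e-24). Helz2, a helicase and coactivator, went from 30.6 CPM in both 0 h libraries to 263 and 257 CPM (3.09 ± 0.053). Trim21, an antibody receptor in the cytosol, went from 4.22 and 4.58 CPM to 91.8 and 97.9 CPM (4.43 ± 0.078), and its spread between replicates was small beside the change. Dtx3l, a ubiquitin ligase that works with Parp9, went from 11.6 and 12.7 CPM to 87.4 and 91.0 CPM (2.87 ± 0.066). Bst2, the tetherin that holds budding virus at the cell surface, was at 10.2 and 11.1 CPM at 0 h and 25.0 and 27.1 CPM at 2 h (1.29 ± 0.098). The 5 members not called were Ifitm1, Ifitm2, Trim25, Epsti1 and Slfn5, whose log2 values ran from -0.02 for Slfn5 to 1.26 for Epsti1. Gm14446 rose from 0.218 and 0.0739 CPM to 4.23 and 4.26 CPM (4.81 ± 0.35).

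Interferon-inducible GTPases, which attack vacuoles that hold bacteria and parasites, rose as strongly. Of 17 tested members 13 rose and 1, Irgq, fell, with a median log2 change of 4.11, or 3.60 when those with no count at 0 h take their lower bound. Irgm1, a regulator of the family, was the most abundant of those named, at 59.7 and 62.6 CPM at 0 h and 427 and 474 CPM at 2 h (2.88 ± 0.057, edgeR adjusted p = 6.2e-26). Igtp went from 1.35 and 1.85 CPM to 47.6 and 51.3 CPM (4.95 ± 0.11), and Irgm2 from 1.93 and 2.18 CPM to 59.4 and 70.4 CPM (4.97 ± 0.11). Iigp1 went from 0.619 and 0.481 CPM to 24.7 and 31.6 CPM (5.66 ± 0.17). The guanylate-binding members Gbp2 and Gbp7 were also well separated between the groups. Gbp2 went from 2.91 and 3.92 CPM to 38 and 45.4 CPM (3.60 ± 0.11), and Gbp7 from 0.947 and 1.07 CPM to 24.6 and 29.5 CPM (4.73 ± 0.16). Tgtp2 rose 46.2-fold (5.53 ± 0.42) from at most 0.111 CPM, with shared reads of its copy Tgtp1 as a reservation. Gbp4 had 0 counts at 0 h and 11 at 2 h, at least 3.84-fold higher.

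**Figure D3:**
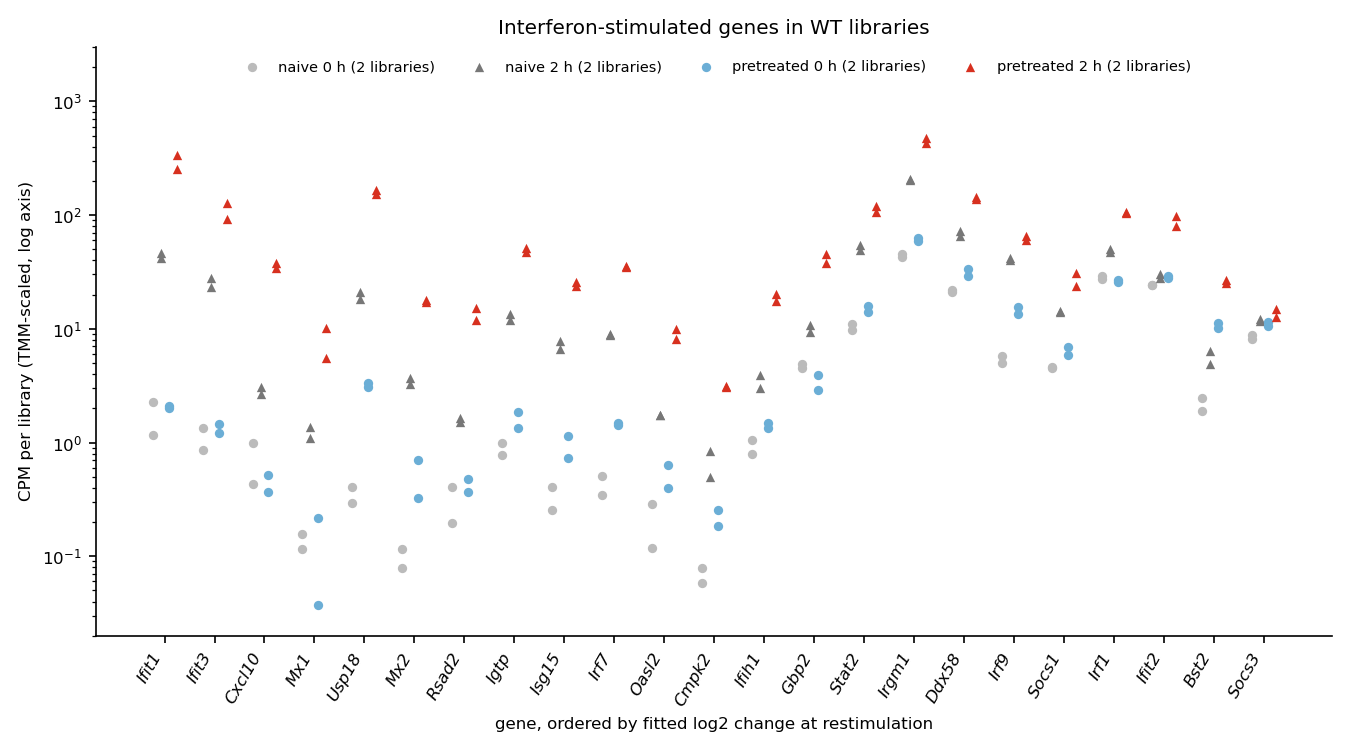
CPM on a log axis (y) of 23 interferon-stimulated genes (x), 1 point per library, for naive WT cells at 0 h (light grey circles) and 2 h (dark grey triangles) and pretreated WT cells at 0 h (blue circles) and 2 h (red triangles). The red points lie above the blue points for every gene shown, from a log2 change of 7.15 for Ifit1 to 0.31 for Socs3.

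Sensors of foreign nucleic acid rose with the effectors. Of 25 tested members 17 rose, and the median log2 change was 1.81. Ticam1 and Ikbke were called lower, but 0 members were with DESeq2 or without WT pretreated 0 h replicate 1. With RLE size factors, without the filter, in the fit on the compared groups, without Rn45s and Lars2, and without replicate 2 of either pretreated WT group, 1 was called lower. Ddx58, which encodes the RNA sensor RIG-I, was at 29.0 and 33.3 CPM at 0 h and at 140 and 144 CPM at 2 h (2.18 ± 0.061, edgeR adjusted p = 1.8e-22). Ifih1, for the long-RNA sensor MDA5, went from 1.35 and 1.48 CPM to 17.7 and 20.1 CPM (3.73 ± 0.14). Tlr3, an endosomal receptor for double-stranded RNA, went from 7.86 and 7.17 CPM to 45.9 and 48.6 CPM (2.65 ± 0.077). Ifi203 and Ifi204, of a family that binds DNA, reached 21.6 and 19.2 CPM and 52.8 and 52.3 CPM, with log2 changes of 3.87 ± 0.12 and 2.13 ± 0.073. Zbp1, a sensor of Z-form nucleic acid, had 0 counts at 0 h and 59 at 2 h, at least 20.6-fold higher. Adaptors downstream of the sensors moved less, with -0.19 for Mavs and 0.17 for Tmem173 (STING), neither called.

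Genes of antigen presentation on MHC class I rose by modest amounts. Of 23 tested members 16 rose and 0 fell, with a median log2 change of 0.59. Tap1, a subunit of the pump that carries peptides into the endoplasmic reticulum, was at 12.6 and 13.9 CPM at 0 h and at 47.3 and 49.0 CPM at 2 h (1.86 ± 0.068, edgeR adjusted p = 1.4e-19). Nlrc5, the transactivator of these genes, went from 0.692 and 0.555 CPM to 3.45 and 3.58 CPM (2.49 ± 0.20). Psmb10, a subunit of the immunoproteasome, went from 12.0 and 11.5 CPM to 27.3 and 25.2 CPM (1.17 ± 0.076). Tapbp, which loads peptides, rose by 0.81 ± 0.051, and the class I heavy chain gene H2-D1 by 0.64 ± 0.061, to 50.5 and 50.9 CPM from 31.3 and 33.9 CPM. Both lay outside the 0 h range in each 2 h library. H2 genes share near-identical sequence, so their single values are uncertain.

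Of 20 tested chemokines and cytokines 8 rose and 2 fell, with a median log2 change of 0.79. The 2 lower stand against 10.5% of all tested genes, and 1 was called with DESeq2 and without either WT pretreated 0 h replicate or WT pretreated 2 h replicate 2. Cxcl10, which draws T cells through the receptor CXCR3, was at 0.364 and 0.518 CPM at 0 h and at 34.3 and 37.8 CPM at 2 h, an 81.0-fold rise (6.34 ± 0.16, edgeR adjusted p = 9.4e-24). Il6 went from 0.400 and 0.444 CPM to 3.42 and 3.58 CPM (3.04 ± 0.26). Lif went from 5.79 and 5.18 CPM to 15.4 and 15 CPM (1.47 ± 0.11), and Csf1, the macrophage growth factor, from 299 and 277 CPM to 502 and 468 CPM (0.75 ± 0.047). Cxcl12, a chemokine that stromal cells make constantly, went the other way, from 258 and 263 CPM to 186 and 172 CPM, and fell by 0.54 on the log2 scale. Cxcl1 fell by 0.62. Tnfsf10, the death ligand TRAIL, rose 4.13-fold but only to 1.52 and 2.70 CPM. Of 20 NF-kB subunits and feedback genes 5 rose and 0 fell (1 without WT pretreated 0 h replicate 1), with a median of 0.10. The feedback deubiquitinase gene Tnfaip3 (0.93 ± 0.060) and Nfkbiz (0.91 ± 0.080) gave the largest rises, followed by Relb (0.55 ± 0.12) and the inhibitor gene Nfkbia (0.42 ± 0.075). Chuk rose by 0.21 ± 0.054, a call lost without WT pretreated 2 h replicate 1 (adjusted p = 0.13).

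Genes that answer growth factors and mechanical change also moved within the same 2 h. Of 36 immediate early factors 26 rose, with a median log2 change of 0.65, and 1, Klf4, was called lower, a call lost without WT pretreated 2 h replicate 1 or WT pretreated 0 h replicate 2. Egr3 was at 2.26 and 1.22 CPM at 0 h and at 15 and 17.7 CPM at 2 h (3.22 ± 0.17, edgeR adjusted p = 7.9e-16). Junb went from 43.7 and 48.0 CPM to 113 and 111 CPM (1.29 ± 0.055), and Jun from 24.9 and 24.3 CPM to 54.6 and 54.1 CPM (1.14 ± 0.061). Nr4a1, an orphan nuclear receptor, went from 20.2 and 17.4 CPM to 62.3 and 55.3 CPM (1.65 ± 0.073). These AP-1 and nuclear receptor genes had 2 h libraries clearly apart from the 0 h libraries. Fosl1 rose by 1.57 ± 0.089 and Maff by 1.76 ± 0.11.

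Feedback genes of the MAP kinase pathway had 13 of 20 members higher, with a median of 0.56, and 1, Dusp8, lower, a call lost with DESeq2 and without replicate 1 of either pretreated WT group. Dusp6, a phosphatase of the kinase ERK, was at 16.5 and 16.7 CPM at 0 h and at 121 and 118 CPM at 2 h (2.85 ± 0.057, edgeR adjusted p = 6.6e-26). Dusp5, whose promoter stretch with CArG boxes is shown above, went from 15 and 15.6 CPM to 102 and 101 CPM (2.73 ± 0.078). Errfi1, an inhibitor of the EGF receptor, went from 31.2 and 29.4 CPM to 159 and 150 CPM (2.35 ± 0.052). Replicates of these 3 genes lay close together at both times. Spry2 rose by 1.54 ± 0.070 and Dusp4 by 1.48 ± 0.076. Of 20 growth factors tested 11 rose and 1, Gdf15, fell, with a median of 0.72. The EGF receptor ligands led: Ereg went from 17.7 and 14.2 CPM to 103 and 108 CPM (2.73 ± 0.074), Areg from 2.1 and 2.77 CPM to 15 and 13.6 CPM (2.54 ± 0.14) and Hbegf from 19.8 and 19.9 CPM to 87.5 and 86.3 CPM (2.13 ± 0.068). Vegfa rose by 0.89 ± 0.050.

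Targets of SRF and YAP, many of them contractile genes, rose often and slightly. Of 25 members 22 rose, with a median log2 change of 0.22, and 13 were called higher without WT pretreated 2 h replicate 2. Amotl2 was called lower, but not with DESeq2, in the fit on the compared groups, without Rn45s and Lars2, or without WT pretreated 0 h replicate 1 or WT pretreated 2 h replicate 2. Ctgf, a matricellular protein gene, was at 142 and 132 CPM at 0 h and at 467 and 493 CPM at 2 h (1.81 ± 0.047, edgeR adjusted p = 2.7e-23). Ankrd1 went from 116 and 108 CPM to 253 and 228 CPM (1.10 ± 0.049), Cyr61 from 213 and 223 CPM to 378 and 384 CPM (0.80 ± 0.044) and Thbs1 from 1342 and 1334 CPM to 2212 and 2227 CPM (0.73 ± 0.045). Vcl, which links actin to adhesions, rose by 0.40 ± 0.042 from 867 and 877 CPM to 1119 and 1175 CPM. In the TGF-beta pathway 6 of 23 rose and 3 fell, beside 12.2% and 10.5% of all tested genes, with a median of 0.08. Inhba, Tgif1, Skil and Smad7 rose by 1.01 ± 0.055, 0.96 ± 0.056, 0.89 ± 0.051 and 0.76 ± 0.064. Extracellular matrix genes split, with 7 of 35 higher and 7 lower and a median of -0.03. The rises were led by Timp3 (0.85 ± 0.044), Tnc (0.84 ± 0.047), Col8a1 (0.60 ± 0.046), Timp1 (0.59 ± 0.046) and Col4a1 (0.29 ± 0.045). The falls were of fibrillar and related collagens, Col1a1 at -0.40 among them, and their count was 4 with DESeq2, 3 without WT pretreated 0 h replicate 1 and 1 without WT pretreated 2 h replicate 1.

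Falls were smaller than rises. Bmf, a pro-apoptotic BH3-only protein gene, was at 3.09 and 3.36 CPM at 0 h and at 0.529 and 0.379 CPM at 2 h, so that it fell by 2.80 on the log2 scale (6.96-fold lower, edgeR adjusted p = 5.7e-10). Kcnj2, a potassium channel gene, was the most abundant of the 14 largest falls, at 40.2 and 41.8 CPM against 12.4 and 13.8 CPM (-1.65 ± 0.095). Tet1, which oxidises methylated cytosine, went from 8.66 and 8.50 CPM to 2.61 and 4.05 CPM (-1.39 ± 0.15). Ddit4l, an inhibitor of mTORC1, went from 7.17 and 7.14 CPM to 2.1 and 3.03 CPM (-1.48 ± 0.16). Ciart, a repressor in the circadian clock, gave -1.66 ± 0.22, and the homeobox gene Dlx5 -1.47 ± 0.28. The remaining large falls were Sorbs2os, Arhgap33, Zfp78, Fam43a, Gprin3, Sp8, Paqr5 and Shpk, from -2.01 to -1.37. The call of Sp8 was lost with DESeq2 (adjusted p = 0.058) and without WT pretreated 2 h replicate 1 (0.12), and that of Paqr5 without WT pretreated 2 h replicate 2 (0.056). Sorbs2os is an antisense transcript, and without a stated strand setting its reads cannot be told apart from those of Sorbs2.

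Of 24 p53 targets 5 rose and 8 fell, with a median log2 change near 0. Trp53inp1 was at 76.4 and 83.4 CPM at 0 h and at 29.0 and 36.6 CPM at 2 h (-1.29 ± 0.073, edgeR adjusted p = 7.9e-15). Sesn2, a regulator of mTORC1 that also answers ATF4, went from 32.5 and 33.3 CPM to 12.3 and 14.3 CPM (-1.31 ± 0.075), and Sesn1 fell by 0.81. Gadd45a went from 16.1 and 16.8 CPM to 7.61 and 7.63 CPM (-1.11 ± 0.10). Plk3 rose by 1.26 ± 0.10. Of 28 ATF4 and unfolded protein stress targets 10 fell and 2 rose (1 in the fit on the compared groups and without either WT pretreated 2 h replicate), with a median of -0.05. Trib3 went from 41.6 and 45.7 CPM to 22 and 19.5 CPM (-1.07 ± 0.087), and Ddit4, Chac1 and Herpud1 fell by 0.89, 0.80 and 0.62. Amino acid synthesis genes of this list, such as Asns (-0.01) and Psat1 (0.07), were not called.

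Cell cycle and cholesterol genes moved little. Of 40 cell cycle genes 4 rose and 3 fell, with a median near 0. Without WT pretreated 2 h replicate 1, 2 were called higher. The number called lower was 1 with RLE size factors, with DESeq2, in the fit on the compared groups, without Rn45s and Lars2, and without WT pretreated 0 h replicate 1 or either WT pretreated 2 h replicate. Ccnd1 rose by 0.20 ± 0.041 and Ccnd3 by 0.22 ± 0.054, E2f2 fell by 0.49, and Pcna (0.16 ± 0.045) and Mcm6 (0.16 ± 0.044) were not called without WT pretreated 2 h replicate 1 (edgeR adjusted p = 0.22 and 0.16). Without WT pretreated 0 h replicate 2, Pcna had an adjusted p of 0.057. Of 29 cholesterol genes 4 rose and 4 fell, with a median of -0.01. The number called higher was 7 without Rn45s and Lars2, 7 without WT pretreated 2 h replicate 2 and 2 without WT pretreated 2 h replicate 1. Dhcr7, the last enzyme of one branch of the pathway, fell by 0.93, while Hsd17b7 (0.27 ± 0.058) rose. Scd2 fell by 0.29 and Insig2 by 0.31, the latter not called without WT pretreated 0 h replicate 1 (adjusted p = 0.072). The shares of these lists called in either direction, 7 of 40 and 8 of 29, stand beside 22.7% of all tested genes.

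**Figure D4:**
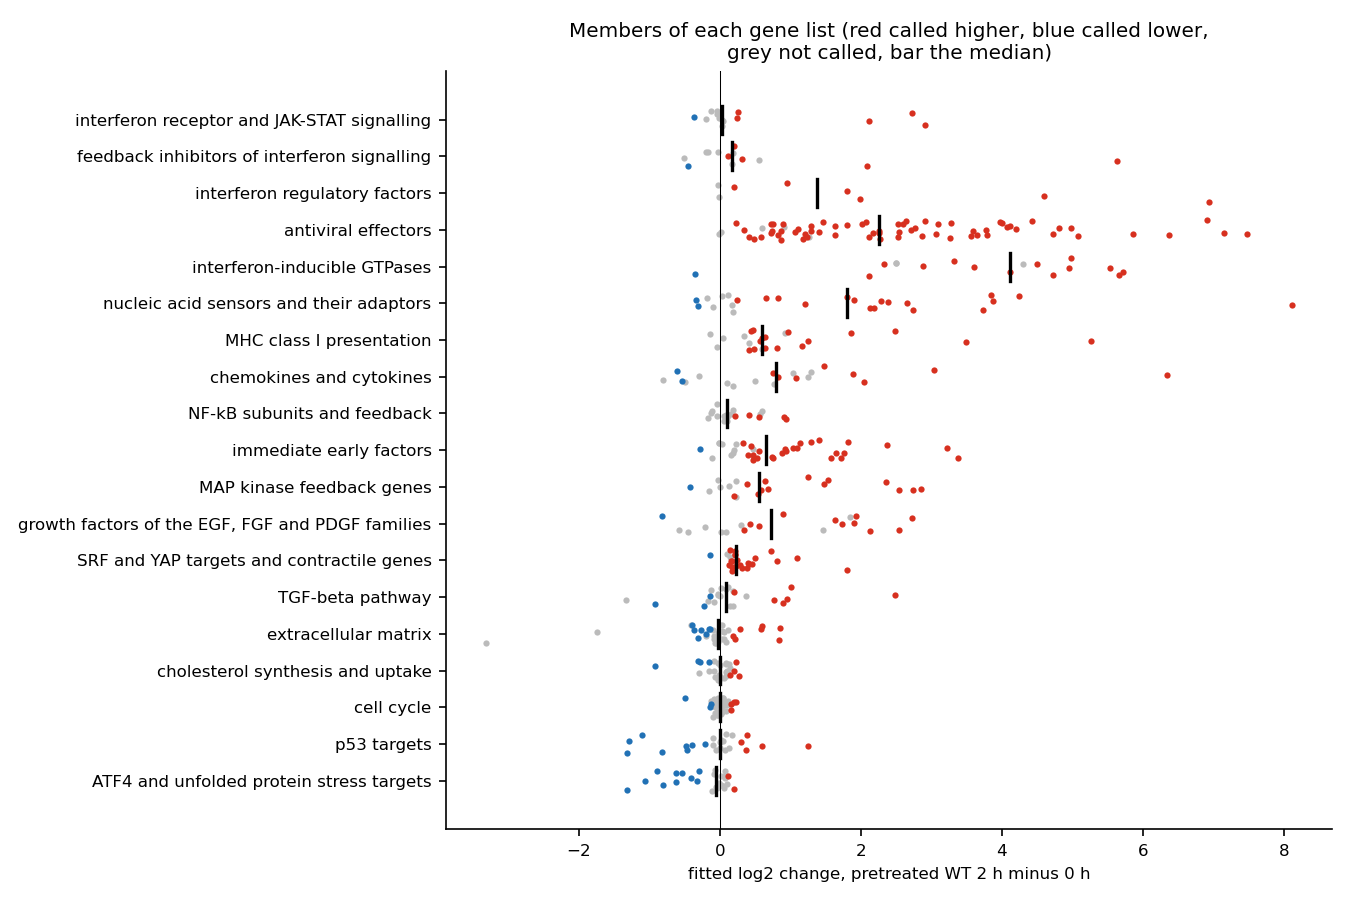
Fitted log2 change at restimulation (x axis) of each tested member of 19 gene lists (rows), with red for members called higher, blue for lower, grey for not called and a black bar at the list median. Antiviral effectors and GTPases have medians of 2.26 and 4.11, immediate early and MAP kinase feedback genes lie at 0.65 and 0.56, and cell cycle and cholesterol genes sit around 0. Fitted values of members with no count in a group, such as Zbp1 at the far right, depend on the prior count.

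The response of pretreated cells was next set against the first response of naive WT cells, gene by gene, as a difference of log2 changes. The responses use separate libraries. The second change was called larger for 39 of 70 antiviral effectors and smaller for 11 of 36 immediate early factors. EdgeR called the difference for 420 of 13802 genes (3.04%), with 225 above 0 (1.63%), where the second log2 change was the higher, and 195 below (1.41%). Leaving out WT naive 0 h replicate 1 gave 256 genes, and leaving out WT naive 2 h replicate 1 instead gave 271. In the former 139 lay above 0 and 117 below, and in the latter 101 lay below. Of the genes called higher at restimulation, 1264 were also called higher in the first response, which is 75.1% of the 1682 and 61.1% of the 2070 of the first (15% of tested genes). Of those called lower, 1040 were shared, 71.4% of the 1456 and 48.2% of the 2159 of the first (15.6% of tested genes). Only 9 and 4 were called in the opposite direction.

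Cxcl10 differed most among genes with a mean of at least 1 CPM in the libraries compared. In naive cells it went from 0.434 and 0.984 CPM to 3.07 and 2.68 CPM, a log2 change of 2.33 ± 0.25, so the second change was higher by 4.01 ± 0.43 (edgeR adjusted p = 2.0e-07). Pretreated cells started no higher, at 0.364 and 0.518 CPM, and reached more than naive cells in both libraries. Ifit1 went from 1.16 and 2.26 CPM to 46.2 and 41.9 CPM in naive cells, and its second change was higher by 2.23 ± 0.35. Gbp2 was higher by 2.46 ± 0.18, Rsad2 by 2.36 ± 0.54 and Iigp1 by 2.19 ± 0.46. Without WT naive 0 h replicate 2 the calls of Rsad2 (adjusted p = 0.12) and Iigp1 (0.071) were lost. Gm14446 was higher by 3.77 ± 0.80, a call lost without WT naive 0 h replicate 1 (0.063). Among sensors, Tlr3 rose in naive cells only from 9.21 and 8.74 CPM to 13.8 and 12.7 CPM, and its second change was higher by 2.09 ± 0.12. Irf1 (1.21 ± 0.083), Ifit2 (1.36 ± 0.11), Tap1 (1.35 ± 0.10) and Stat2 (0.62 ± 0.11) also had the larger second change.

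Other interferon-stimulated genes rose by log2 changes whose difference was not called. Usp18 stood at 0.296 and 0.405 CPM in naive cells at 0 h and reached 20.9 and 18.1 CPM, a log2 change of 5.91 ± 0.18, and the difference was -0.28 ± 0.34 (edgeR adjusted p = 0.84). Its level was higher in pretreated cells both before and after the 2 h. Isg15 gave a difference of 0.11 ± 0.46, Irf7 0.38 ± 0.29, Mx2 -0.18 ± 0.50 and Bst2 -0.04 ± 0.19, and each reached higher CPM in the pretreated 2 h libraries than in the naive ones. These SEs leave differences of some size possible in either direction. Irf9 alone among the 23 interferon-stimulated genes plotted by library had a difference called below 0, at -0.85 ± 0.12 (adjusted p = 3.1e-05). It was at 5.03 and 5.73 CPM in naive cells at 0 h against 13.4 and 15.7 CPM in pretreated cells, and at 41.8 and 39.9 CPM against 60.4 and 65.8 CPM at 2 h.

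By list, 39 of 70 antiviral effectors had a difference above 0 and 0 below, with a median difference of 0.84. The GTPases had 7 of 17 above and 0 below, or 4 above without either WT naive 0 h replicate. Sensors had 10 of 25 above and 0 below, and MHC class I genes 8 of 23 and 0, or 5 above without WT naive 0 h replicate 1 and WT pretreated 2 h replicate 1 together, the libraries of this comparison that are low in Rn45s and Lars2. Immediate early factors had 0 of 36 above and 11 below, with a median of -0.31. MAP kinase feedback genes had 0 of 20 above and 8 below, or 5 below where replicate 1 of either naive WT group was left out. Cholesterol genes had 0 of 29 above and 6 below.

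Sema7a, a membrane semaphorin gene, had the largest difference below 0. It went from 0.907 and 0.695 CPM to 45.1 and 41.6 CPM in naive cells and from 2.80 and 2.14 CPM to 40.6 and 34.0 CPM in pretreated cells. The log2 changes were 5.67 ± 0.14 and 3.92 ± 0.12, and their difference was -1.75 ± 0.24 (edgeR adjusted p = 1.4e-05). Both pretreated 2 h libraries lay below both naive 2 h libraries, although the pretreated cells had started higher. Dusp4 (-1.35 ± 0.12), Maff (-1.24 ± 0.16), Nr4a1 (-0.80 ± 0.11), Ctgf (-0.73 ± 0.065) and Dusp6 (-0.70 ± 0.085) also had the smaller second change. Slc30a1, a zinc exporter gene, rose from 5.90 and 6.83 CPM to 16.3 and 16.8 CPM in naive cells and stood at 8.37 and 8.47 CPM and then 8.78 and 9.31 CPM in pretreated cells (difference -1.31 ± 0.15). The differences of C330024D21Rik (-1.52 ± 0.40) and Srp54c (-1.09 ± 0.28) were called only barely, with adjusted p = 0.027 and 0.028. Leaving out a library took the adjusted p as high as 0.32 for C330024D21Rik (without WT naive 2 h replicate 1) and 0.25 for Srp54c (without WT pretreated 0 h replicate 2).

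**Figure D5:**
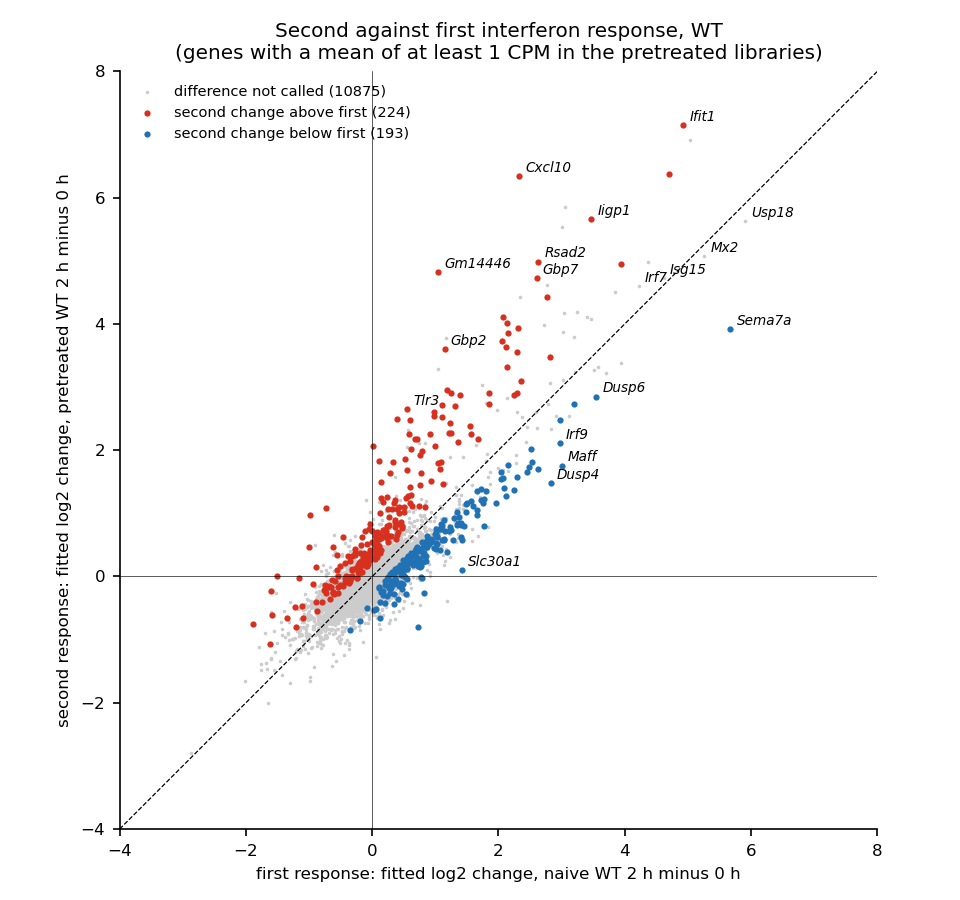
Fitted log2 change in pretreated WT cells (y axis, second response) against that in naive WT cells (x axis, first response) for genes with a mean of at least 1 CPM in the 4 pretreated libraries, with a dashed line of equal change. Red marks genes whose difference was called above 0, such as Cxcl10, Gm14446 and Gbp2, and blue those called below 0, such as Sema7a, Irf9 and Dusp6, while Usp18, Mx2 and Irf7 lie among the grey genes not called.

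The ISRE share differed along the same lines in the genes that rose at least 2-fold at restimulation. Where the second change was called larger, 36 of 101 promoters (35.6%, 34 of 71 genes) held the ISRE core. Where it was called smaller, 1 of 34 (2.94%, 1 of 24 genes) did, near the 3.01% of promoters of all tested genes. These sets were cut from the response itself, so the shares are a description.

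The response was last set against that of restimulated KO fibroblasts, treated in the same way. Before restimulation the pretreated cells already differed in marker genes. Nes was at 1.35 and 2.07 CPM in WT and 305 and 294 CPM in KO. Thy1 was at 0.109 and 0.111 CPM against 30.1 and 28.04 CPM, and Pdgfra at 5.35 and 5.99 CPM against 93.98 and 95.16 CPM. Dcn went the other way, at 18.1 and 19.4 CPM against 1.19 and 1.15 CPM. Vim differed less, at 4861 and 5197 CPM against 4062 and 3876 CPM. What these add to the differences in response was not tested. The test of the WT minus KO difference in response called 1247 of 13802 genes (9.03%), with 346 above 0 (2.51%), where the WT change was the higher, and 901 below (6.53%). The share of calls above 0 was 27.7% here, 27.8% with DESeq2 and 35.7% without Rn45s and Lars2. Rn45s and Lars2 took 29.4% of counts in KO pretreated 0 h replicate 1 and 19.0% in replicate 2. The number above 0 was 229 when WT pretreated 2 h replicate 1 was left out and 226 when KO pretreated 2 h replicate 2 was. Of the 1682 genes called higher at restimulation of WT cells, 1213 (72.1%) were shared with the 2475 called higher in KO (17.9% of tested genes), of which they are 49.0%. Of the 1456 called lower, 829 (56.9%) were shared with the 1871 called lower in KO (13.6% of tested genes), of which they are 44.3%. Ifit1 rose by 7.15 ± 0.14 on the log2 scale in WT and by 7.10 ± 0.11 in KO (difference 0.06 ± 0.24, edgeR adjusted p = 0.95), but from 9.93 and 11 CPM in KO. Cxcl10 reached 549 and 556 CPM in KO and its WT change was lower by 3.19 on the log2 scale, which is -3.19 ± 0.46. Rsad2 (-4.07 ± 0.46), Gbp2 (-2.87 ± 0.19), Tlr3 (-2.23 ± 0.12) and Socs1 (-1.91 ± 0.17) also rose less in WT. Tnfsf10, at 1.52 and 2.70 CPM in restimulated WT cells, reached 60.8 and 63.9 CPM in KO (-4.81 ± 0.50).

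The WT response was the larger for MAP kinase feedback genes, with 11 of 20 differences above 0 and 2 below. Dusp6 went from 21.1 and 20.9 CPM to 45.5 and 45.7 CPM in KO, where its log2 change was 1.12 ± 0.056, so that the WT change was higher by 1.73 ± 0.081 (edgeR adjusted p = 1.9e-15). Dusp2 was higher in WT by 1.71 ± 0.27 and Irf9 by 0.90 ± 0.096. Antiviral effectors had 1 of 70 differences above 0 and 35 below, and MHC class I genes 0 of 23 above and 17 below. Hgf and Cd300lb rose in WT (1.63 ± 0.40 and 1.67 ± 0.28), with KO changes of 0.02 ± 0.070 and -0.31 ± 0.17. Hgf was at most 0.716 CPM in the WT libraries and between 26.3 and 28.1 CPM in KO, and its difference was not called without either WT pretreated 0 h replicate (adjusted p = 0.057 and 0.052). Pde4b, which breaks down cyclic AMP, fell by 0.71 in WT and by 2.47 in KO.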

How the data were processed

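Per the labels' protocols, TRIzol RNA went through the NuGEN Ovation SP Ultralow kit and paired-end HiSeq2000 sequencing. The deposited files hold whole-number counts per gene symbol, made with STAR 2.5.2b and HTSeq on mm9, per the submitters' processing notes. Which annotation and strand setting were used is not given in the sources used here, so antisense, overlapping and near-identical genes are uncertain.

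The 5 summary lines of each table were left out. In the 4 libraries, 35.1% to 39.3% of unique reads lay in no gene. Replicates of a group differed by more than sampling noise, with chi-square values per degree of freedom of 5.94 at 0 h and 73.1 at 2 h, or 4.81 and 4.55 without Rn45s and Lars2. Since no label says that replicates came from separate cultures, p-values here measure only how far these samples spread, which may be technical.

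TMM-scaled counts were fitted in edgeR 4.0.16 (R 4.3.3, limma 3.58.1) with the quasi-likelihood test over all 15 libraries in 8 groups (7 residual degrees of freedom). One group has 1 library and borrows the spread of the others. Of 24015 genes, 13802 passed filterByExpr (minimum count 10). Benjamini-Hochberg adjusted p below 0.05 was called. There were 3 main comparisons: restimulation, its difference from the first WT response, and its difference from the KO response. The same fit also tested the first WT response, the KO response, and pretreated against naive WT cells at 0 h and at 2 h. Calls of the first WT response and of the KO response were used for the overlaps. SEs follow from the fitted change and its test statistic. Where a group had no count, its fold is a bound from 3 counts over that group, and such floors cover counting error only. Named genes were Whsc1, the 14 largest rises and falls among called genes with a mean of at least 1 CPM and groups that do not overlap, up to 5 members per list with the smallest p, the 6 largest of each difference each way, and 24 interferon-stimulated genes, and a few more list members were named after their values were seen. Some genes that the rule takes are left out of the text. The members and the gene lists were chosen with earlier results of these data known. The fits were repeated with DESeq2 1.42.0, with RLE size factors, without the filter, on fewer groups, with a replicate block, and with Rn45s and Lars2 or single libraries left out. The restimulation test was tested on simulated data (13358 genes, 200 changed): it recovered 82% of changes of 1 log2 unit and 91% of 2, with 5.98% of calls false. For the difference from the first response (13320 genes) the shares were 78%, 91% and 5.59%, and for that from KO (13350 genes) 77%, 86% and 6.32%. The simulated counts followed edgeR's own fitted spread, with the 200 changes equally often up and down, while 3138 genes were called at restimulation. These shares therefore do not cover errors from scaling or from differences between libraries that the model leaves out. Promoters came from RefSeq (GRCm38.p6), matched by symbol, for 10871 of the 13802 genes. Figures were drawn with matplotlib 3.10.9.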

Additional observations from a re-analysis of the deposited data

Results flagged for a closer look

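The tests of a difference between responses picked out 420 genes between the second and the first response in WT, and 1247 between restimulation in WT and KO. Between second and first response the differences of log2 changes named by size were 4.01 for Cxcl10, 3.77 for Gm14446, 2.46 for Gbp2, 2.36 for Rsad2, 2.23 for Ifit1 and 2.19 for Iigp1 above 0. Below 0 they were -1.75 for Sema7a, -1.52 for C330024D21Rik, -1.35 for Dusp4, -1.31 for Slc30a1, -1.24 for Maff and -1.09 for Srp54c.

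Between WT and KO the differences above 0 were 1.98 for Cd300lb, 1.83 for Gdf5, 1.76 for Pde4b, 1.73 for Dusp6, 1.71 for Dusp2 and 1.61 for Hgf. Gdf5, at 10.8 to 13.9 CPM in the WT libraries, was at most 0.374 CPM in KO. Its call was lost with DESeq2 (adjusted p = 0.105) and in the edgeR fit on the compared groups (0.057). It was also lost without any single library except WT pretreated 2 h replicate 1 or WT pretreated 0 h replicate 2. Those below 0 were -8.13 for Gbp2b, -5.94 for B3gnt5, -5.22 for Dll1, -4.81 for Slfn4, -4.81 for Tnfsf10 and -4.57 for Gm14446. Gbp2b reached 114 CPM in both restimulated KO libraries and was at most 0.185 CPM in the WT ones. Dll1 reached 13.5 and 13.4 CPM in KO and was at most 0.291 CPM in WT. B3gnt5 reached 12.0 and 11.6 CPM in KO, and in WT it had 3 counts at 0 h and 0 at 2 h, so that its fitted difference depends on the prior count and is no fold. The call of B3gnt5 was lost whichever single library of the comparison was left out, with fitted differences from -6.33 to -5.41. That of Gm14446 was lost without WT pretreated 0 h replicate 1, where its difference was -3.59. Slfn4 was at 1.16 and 1.81 CPM in restimulated WT cells and 1.46 and 1.97 CPM in KO, from 0.947 and 0.702 CPM in WT and 0.0567 and 0 CPM in KO.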

How the results depend on the processing

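The 3138 genes called at restimulation became 3185 with RLE size factors, 3184 without the filter, 2375 with DESeq2, 2474 in a fit on the compared groups, 3348 without Rn45s and Lars2 and 2131 to 2668 when 1 library was left out, and 1456 of them were called in every such fit. The 420 genes of the difference from the first response became 256 to 397 with 1 library left out, 288 without both libraries low in Rn45s and Lars2, 328 with DESeq2 and 553 without the filter, and 177 were called whichever library was left out. The 1247 of the difference from KO became 927 with DESeq2, 1346 without the filter and 933 to 1255 with 1 library left out, and 655 were called in every one of the latter fits. The replicate block gave 3471, 527 and 1397 genes. Deviations of same-numbered samples correlated at 0.04 between the pretreated WT groups and at 0.064 between the restimulated WT and KO groups. Counting noise in genes with few counts also lowers such values, so they cannot settle whether the numbers pair the samples. Of the named genes called at restimulation, 120 of 129 kept their call in every alternative run. Values changed sign for 3 genes that were not called. With 1 library left out, the restimulation change ran from -0.649 to 0.074 for Srp54c, from -0.491 to 0.216 for Dll1 and from -0.0293 to 0.135 for Whsc1. The cause of these shifts was not tested. With 2 libraries a group, genes with few counts are measured imprecisely.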
